A study of Mus musculus with 8 samples.

Results

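Gene expression in mouse brain was compared with gene expression in mouse liver across 14630 genes, those of 27179 deposited genes whose log2 value was above 0 in at least 2 of 4 libraries. The 4 libraries were total RNA of frozen brain and of formalin-fixed, paraffin-embedded (FFPE) brain, set against frozen liver and FFPE liver, with 1 library each. They belong to a series of 8 libraries that also holds frozen and FFPE heart and kidney and that was made to profile stored tissue with several assays. Formalin crosslinks and fragments RNA, so the preparation was kept as a block in the comparison and each difference was also taken within frozen and within FFPE tissue. The labels give tissue and preparation only. Strain, age, sex, the number of animals, any pooling and the piece of organ taken are not stated, and the labels name no genetic change or treatment. Separate cultures or animals are not named, so p-values measure the spread of the 8 libraries around the organ and preparation terms. That spread may be technical, and sex-linked and regional transcripts also differ between libraries, as given below.

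Brain tissue is built of neurons, which fire action potentials and release transmitters at synapses, and of glia, which insulate axons, clear transmitters and feed the neurons. Liver tissue is mostly hepatocytes, which secrete the plasma proteins, make bile acids, clear drugs and hold the blood glucose level between meals, together with Kupffer cells, sinusoidal endothelium and stellate cells. In RNA of whole tissue, fewer cells of a type and less RNA per cell cannot be told apart.

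Values are log2 CPM (read counts scaled by library size) as deposited, with 0.5 reads added to each count, so that a gene without reads sits between -5.66 and -4.38 depending on the library. The libraries held 16807233 reads in frozen brain and 10180972 in FFPE brain, against 13716870 in frozen liver and 15619829 in FFPE liver. The deposited values rest on scaling factors of 1.5 and 1.76 in frozen and FFPE brain, against 0.759 and 0.929 in frozen and FFPE liver. Ribosomal RNA of the nucleus took 12.9% and 2.93% of reads in frozen and FFPE brain, against 21.6% and 2.67% in frozen and FFPE liver. A difference is brain minus liver in log2 units, tested with limma over all 14630 genes at a Benjamini-Hochberg adjusted p under 0.05. Where an organ had no reads of a gene in either library, the fitted difference depends on the 0.5 added reads, and the fold is given as a lower bound against 3 reads per library. Of the tested genes 2550 were above the level in both brain libraries and in neither liver library, and 1092 in both liver libraries and in neither brain library. Such genes entered through the organ where they were high, so the counts over gene lists that follow are descriptions. At the edge of the rule, 9030619P08Rik was just inside with log2 values of -5.66 and -5.16 in frozen and FFPE brain and 0.01 and 3.95 in frozen and FFPE liver. Gm14964 was just outside with 0.02 and -0.30 in frozen and FFPE brain and -4.38 and -0.00 in frozen and FFPE liver.

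The labels were checked against defining genes before any comparison. All 16 pan-neuronal markers listed had reads in both brain libraries, with a summed level of 2989 CPM in frozen brain and 3232 CPM in FFPE brain, against 12.1 CPM in frozen liver and 12.5 CPM in FFPE liver. The 29 plasma carrier proteins and protease inhibitors listed for hepatocytes all had reads in both liver libraries. Heart markers, 12 in all, had no reads for 2 members in frozen brain and 2 in FFPE brain, and for 5 and 3 members in frozen and FFPE liver. Among them Ryr2, a calcium release channel that neurons also use, had 3636 and 5290 reads in frozen and FFPE brain against 2 and 11 in frozen and FFPE liver. The cytokeratin genes Krt7 and Krt19 of bile duct cells had 8 and 6 reads in frozen liver and 3 and 14 in FFPE liver.

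The libraries differed in sex-linked transcripts. Xist, the RNA that silences an X chromosome in female cells, had 13170 reads in frozen brain and 9954 in FFPE brain, against 3 in frozen liver and 24213 in FFPE liver. Ddx3y, a helicase gene on the Y chromosome, had 0 reads in frozen brain and 224 in FFPE brain, against 639 in frozen liver and 308 in FFPE liver. Eif2s3y had 0 and 189 reads in frozen and FFPE brain and 354 and 243 in frozen and FFPE liver. Frozen brain thus held Xist and almost no Y-linked reads, frozen liver held the reverse, and both FFPE libraries held both kinds of transcript. In the frozen pair, organ and sex cannot be told apart. Cyp2b9 and Sult2a1, hepatic genes expressed more in female mice, had at most 1 read in either brain library, against 1 and 0 reads in frozen liver and 4205 and 308 in FFPE liver. Each of these genes was above the level in a single library and stayed outside the comparison.

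The brain libraries also differed in regional transcripts. Oxt and Avp, which encode the hypothalamic hormones oxytocin and vasopressin, had 962 and 308 reads in frozen brain and 2 and 0 reads in FFPE brain. Gabra6, Cbln3 and Fat2, genes of cerebellar granule cells, had 0, 4 and 1 reads in frozen brain and 742, 1069 and 2341 reads in FFPE brain. Slc17a7, the vesicular glutamate transporter of cortical neurons, had 128 reads in frozen brain and 2798 in FFPE brain. Its relative Slc17a6, the form of thalamus and hypothalamus, had 1803 reads in frozen brain and 793 in FFPE brain. Genes above the level in a single library of the 4 numbered 280 for frozen brain and 324 for FFPE brain, against 134 for frozen liver and 148 for FFPE liver, and are not among the tested genes. The heat map of sex-linked and region genes shows these reads side by side. Whether the brain libraries came from different pieces of brain is not given, and its part in the results was not tested.

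**Figure D1:**
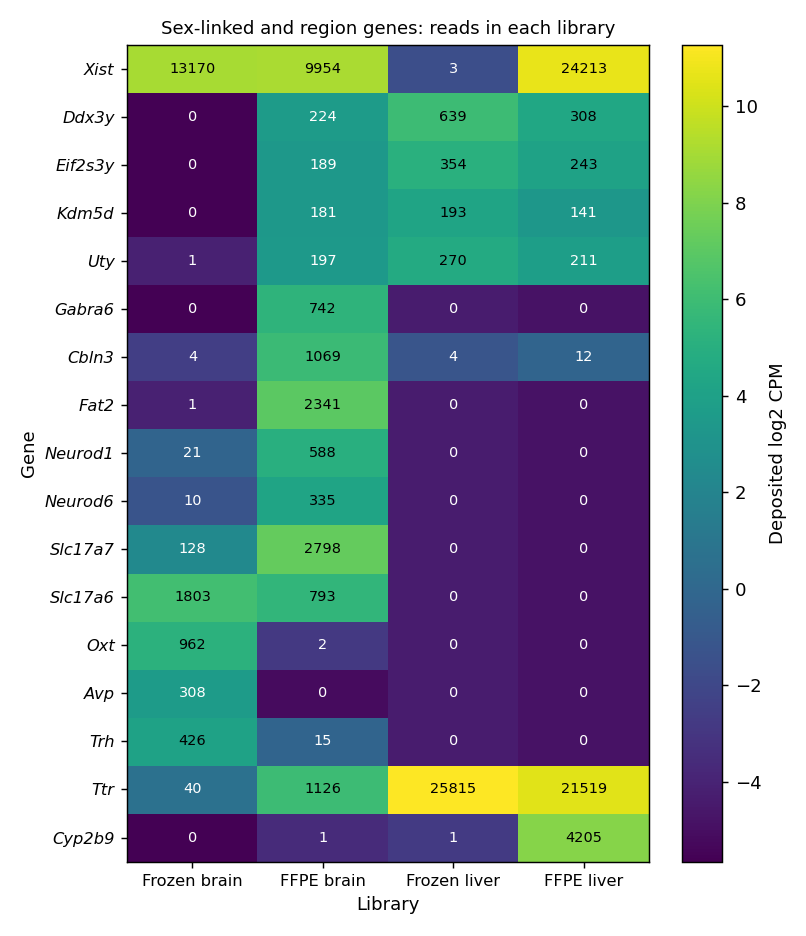
Reads of 17 sex-linked, regional and female-biased genes (rows) in frozen brain, FFPE brain, frozen liver and FFPE liver (columns), with colour giving the deposited log2 CPM and the printed figure the read count. Xist is at 3 reads in frozen liver alone, the Y-linked genes are at 0 or 1 in frozen brain alone, and cerebellar granule cell genes such as Fat2 have 1 read in frozen brain and 2341 in FFPE brain.

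Brain and liver differed at most genes. In all, 10288 of 14630 genes (70.3%) passed the threshold, 5521 (37.7%) higher in brain and 4767 (32.6%) lower in brain, with a median difference of 0.10 log2 units over all tested genes. Both brain libraries lay above both liver libraries for 6506 genes (44.5%) and below both for 5695 (38.9%). In both preparations 2620 genes (17.9%) were 8-fold or more higher in brain and 1391 (9.51%) were 8-fold or more lower. The count at an unadjusted p under 0.05 was 10606. Without the scaling factors behind the deposited values the median of all genes was 1.05. The split was then 8092 higher and 2513 lower in brain. The direction of small differences can therefore depend on the scaling, and results without the factors are given for some of them. Leaving out each of the 4 libraries in turn gave 8733 to 9265 called genes.

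The differences in frozen and in FFPE tissue lay close together. They had the same sign for 13358 genes (91.3%), and their Pearson correlation across genes was 0.97. The log2 values of frozen and FFPE tissue correlated at 0.95 within brain and 0.97 within liver, while brain and liver correlated at 0.12 in frozen and 0.13 in FFPE tissue. Genes are not independent replicates, so these correlations are descriptions. Opposite signs, both beyond 1 log2 unit, were found for 14 genes. The plot of frozen against FFPE differences shows a single diagonal band with few genes in the opposite corners.

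**Figure D2:**
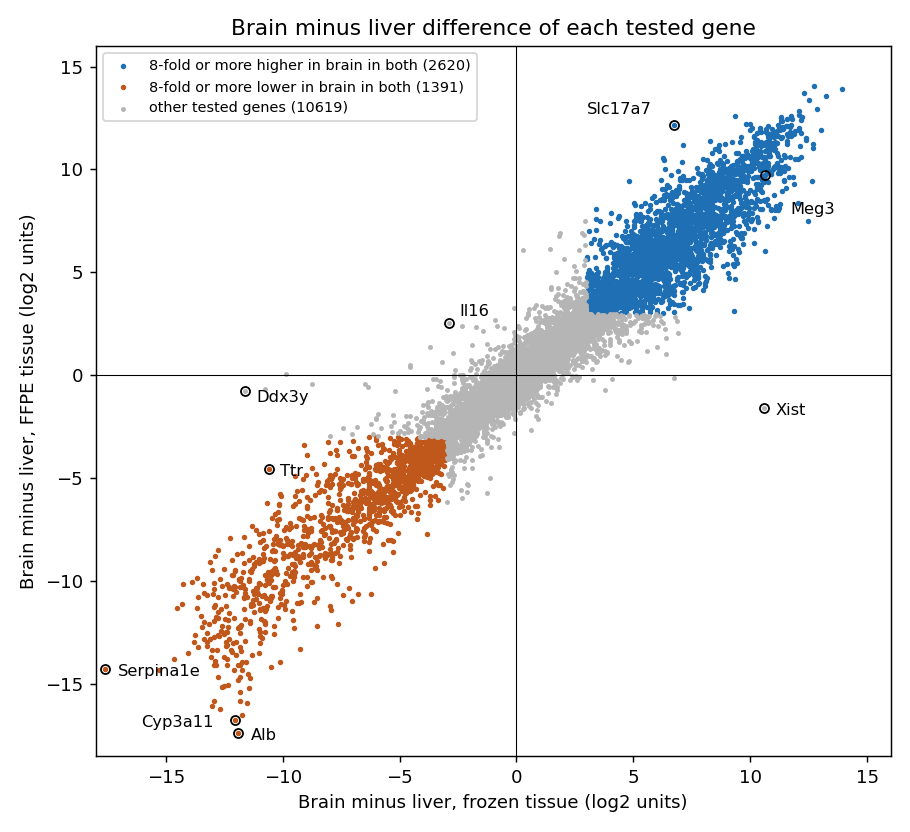
Brain minus liver difference of each of the 14630 tested genes in frozen tissue (horizontal axis, log2 units) and in FFPE tissue (vertical axis, log2 units), coloured by whether both differences were 8-fold or more; values of genes without reads in an organ depend on the 0.5 added reads. The 2620 and 1391 genes 8-fold apart in both preparations lie along the diagonal, while Xist at 10.60 and -1.59 and Ddx3y at -11.60 and -0.76 leave it.

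The 2 organs spread their reads in different ways. Leaving out ribosomal RNA and mitochondrial genes, the 2620 genes 8-fold higher in brain took 30.2% of the reads in frozen brain and 30.5% in FFPE brain, against 0.292% in frozen liver and 0.388% in FFPE liver. The 1391 genes 8-fold lower in brain took 1.30% and 1.11% of the reads in frozen and FFPE brain, against 51.0% and 50.7% in frozen and FFPE liver. The 20 most read of the organ's own 8-fold genes took 4.93% and 4.59% of the reads in frozen and FFPE brain, against 18.95% and 18.1% in frozen and FFPE liver. The share of these 20 genes was thus larger in both liver libraries than in both brain libraries. The genes were chosen on these differences, so the shares are descriptions.

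Promoters of 4 genes that passed the threshold are shown as examples of the sequence in front of genes of each direction. The 4 were picked by hand from a longer list of genes with computed motif matches. Their matches and CpG counts therefore do not stand for the genes of either direction. Kif5c, a kinesin motor that carries cargo along axons, and Syn1, which encodes the vesicle protein synapsin, were higher in brain. Alb, the gene of serum albumin, and Fabp1, which encodes the liver fatty acid binding protein, were lower in brain. Each sequence holds the 250 bases before the gene's start in RefSeq (build GRCm38.p6), 5′ to 3′ on the gene's strand, with matches to 6 motifs in capitals. The motifs were searched on both strands as the letters GTTAATNAT for the hepatic factor HNF1, CAAAGTCCA for HNF4, TTGCNNAA for C/EBP, TGACGTCA for the cAMP response element (CRE) and TTCAGCACC for the left part of the repressor element RE1. The letters TATAAA were searched on the gene's strand near 30 bases before the start.
Kif5c, chr2:49619036-49619285, plus strand: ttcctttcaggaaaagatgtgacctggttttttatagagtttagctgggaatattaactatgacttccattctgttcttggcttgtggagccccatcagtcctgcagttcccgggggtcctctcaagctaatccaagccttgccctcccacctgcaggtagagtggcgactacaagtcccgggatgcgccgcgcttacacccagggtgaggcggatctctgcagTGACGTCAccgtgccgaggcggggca
Syn1, chrX:20920919-20921168, minus strand: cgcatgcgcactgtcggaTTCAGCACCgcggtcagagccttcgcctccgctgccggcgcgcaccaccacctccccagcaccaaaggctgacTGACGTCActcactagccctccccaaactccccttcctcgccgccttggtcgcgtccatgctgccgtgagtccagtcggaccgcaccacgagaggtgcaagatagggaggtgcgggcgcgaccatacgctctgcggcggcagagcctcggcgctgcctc
Alb, chr5:90460620-90460869, plus strand: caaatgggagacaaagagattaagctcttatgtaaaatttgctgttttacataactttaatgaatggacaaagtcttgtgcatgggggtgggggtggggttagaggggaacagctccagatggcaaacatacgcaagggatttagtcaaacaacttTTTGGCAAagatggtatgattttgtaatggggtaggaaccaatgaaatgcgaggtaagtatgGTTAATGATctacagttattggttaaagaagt
Fabp1, chr6:71199629-71199878, plus strand: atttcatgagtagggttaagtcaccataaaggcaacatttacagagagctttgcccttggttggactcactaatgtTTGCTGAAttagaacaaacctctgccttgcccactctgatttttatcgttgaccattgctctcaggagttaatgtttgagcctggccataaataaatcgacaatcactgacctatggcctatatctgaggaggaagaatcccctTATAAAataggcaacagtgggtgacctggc

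Kif5c held a CRE match, Syn1 an RE1 match and a CRE match, Alb an HNF1 and a C/EBP match, and Fabp1 a C/EBP and a TATA match, none overlapping another. Of 32851 RefSeq promoters of this length, 0.737% held the HNF1 letters, 0.384% HNF4, 9.56% C/EBP, 1.55% CRE, 0.301% the RE1 letters and 1.99% the TATA letters. Syn1 had 27 CpG and Kif5c 11, while Alb had 2 and Fabp1 2, beside a median of 6 over all promoters of the table. A match is a description of letters and shows no binding. A comparison of promoters between the organs' genes was void, because a promoter was held for 75.2% of the protein-coding genes 8-fold higher in brain and 77.4% of those 8-fold lower, under the 80% needed.

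The largest positive differences were of genes, most of them neuronal, with at most 1 read in either liver library. Ndrg4 and the vesicle fusion SNARE Snap25 had 11640 and 8103 reads in frozen brain, 7486 and 10461 in FFPE brain and 0 in both liver libraries, at least 1800-fold and 1776-fold higher (adjusted p = 9.65e-07 and 5.39e-06). Kif5c had 10010 and 7228 reads in frozen and FFPE brain against 0 and 1 in frozen and FFPE liver. Also among the 15 largest were Camk2a, Gria2, Rab3c, Scn2a, Cntn1, Fat3, Eef1a2, Dlg2, Gabrb2, Sv2a and the noncoding RNA Miat, each without a read in liver and at least 695-fold higher in brain. For each of these genes both brain libraries lay above both liver libraries.

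The largest negative differences were of secreted proteins and enzymes of hepatocytes. Serpina1e, an antitrypsin gene, had 0 and 1 reads in frozen and FFPE brain and log2 values of 11.96 and 10.70 in frozen and FFPE liver, a difference of -15.95 ± 1.02 (SE; adjusted p = 2.66e-06). It has near-identical copies in the mouse genome, as do the major urinary protein, Cyp2c and Ugt2b genes, so reads may be split between copies. Alb had log2 values of 3.18 and -2.36 in frozen and FFPE brain, against 15.10 and 15.02 in frozen and FFPE liver, a difference of -14.65 ± 1.10. Pck1, the enzyme that commits carbon to glucose synthesis, had 4 and 0 reads in frozen and FFPE brain and 15555 and 27765 in frozen and FFPE liver (-14.55 ± 1.10). The others were Serpina1d, Mup3, Cyp3a11, Plg, Rdh7, Serpina3k, Hpx, Serpina1b, Fgg, Ugt2b36, Tat and Serpina1c, with fitted differences between -14.80 and -13.71. Serpina1d, Rdh7 and Ugt2b36 had no reads in either brain library, so their differences depend on the 0.5 added reads. The rest of these genes except Alb had no reads in 1 brain library, so their differences depend on the added reads in part. The liver libraries lay above the brain libraries for every one of these 15.

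Liver transcripts were present at a low level in both brain libraries. Alb had 228 reads in frozen brain and 3 in FFPE brain, which is 257 and 5.03 ppm of its CPM in frozen and FFPE liver. Cyp3a11 had 27 and 0 reads in frozen and FFPE brain, Serpina3k 36 and 0, and Tat 13 and 0. Over the 29 plasma protein genes the median was 263 ppm in frozen brain and 136 in FFPE brain, with no reads for 4 and 9 genes. The median was higher in FFPE brain for the clotting and complement list, at 402 ppm in frozen brain and 563 in FFPE brain, and for the cytochrome P450 list, at 312.5 and 522.5 ppm in frozen and FFPE brain. In the other direction, 30 vesicle release genes had medians of 639 ppm in frozen liver and 936 in FFPE liver of their CPM in brain, with no reads for 14 and 11 members. The source of these reads was not tested, and differences of the largest liver genes depend on them.

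Ion channels that carry the action potential were higher in brain throughout the list. All 30 listed sodium, potassium, HCN and calcium channel genes were tested and all 30 were higher in brain, beside 37.7% of all tested genes. Their median difference was 9.01 log2 units, or 8.23 with the 11 genes without liver reads at their lower bound. Scn2a, a pore-forming sodium channel of excitatory neurons, had log2 values of 7.72 and 7.97 in frozen and FFPE brain and no liver reads, at least 941-fold higher (adjusted p = 3.94e-07). Kcna2, a potassium channel of axons, had 7.13 and 7.997 in frozen and FFPE brain against 2.33 and 2.79 in frozen and FFPE liver, a difference of 4.999 ± 0.365 (SE). Brain and liver libraries did not overlap for either gene.

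Receptors for glutamate, the main excitatory transmitter, followed the same pattern. All 32 receptor and postsynaptic density genes were higher in brain, with a median of 9.04, or 7.60 with 12 genes at their bound. Gria2, the AMPA receptor subunit that limits calcium entry, had log2 values of 8.13 and 8.53 in frozen and FFPE brain and no reads in liver, at least 1318-fold higher. Camk2a, the kinase of the postsynaptic density, had 6156 and 8152 reads in frozen and FFPE brain and 0 in liver, at least 1366-fold higher. The scaffold gene Shank2 was the least different member, with log2 values of 5.68 and 6.46 in frozen and FFPE brain against 4.71 and 5.16 in frozen and FFPE liver (1.13 ± 0.30, adjusted p = 0.00926). It missed the threshold without frozen brain, without FFPE brain and without FFPE liver, at adjusted p = 0.0683, 0.0553 and 0.0854.

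Inhibitory signalling by GABA and glycine was higher in brain for 21 of 23 genes, with a median of 9.17, or 6.59 with 17 genes at their bound. Gad1 and Gad2, the enzymes that make GABA, had no reads in liver and were at least 591-fold and 662-fold higher in brain. Gad2 had 6485 reads in frozen brain and 1819 in FFPE brain. The 2 exceptions were lower in brain. Abat, the mitochondrial enzyme that breaks GABA down, had log2 values of 7.98 and 6.91 in frozen and FFPE brain against 8.39 and 8.23 in frozen and FFPE liver (-0.87 ± 0.22, adjusted p = 0.00725). Gphn, the scaffold of inhibitory synapses that also takes part in molybdenum cofactor synthesis, had 5.11 and 5.16 in brain and 5.78 and 6.15 in liver (-0.83 ± 0.17). Without the scaling factors both differences lay near 0, at 0.09 for Abat and 0.12 for Gphn. Without FFPE brain and without FFPE liver Abat was at -0.46 and -0.66 (adjusted p = 0.0677 and 0.077).

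The machinery of vesicle release was higher in brain for all 30 listed genes, with a median of 9.41, or 7.89 with 11 genes at their bound. Rab3c, a small GTPase of synaptic vesicles, had 8854 and 4839 reads in frozen and FFPE brain and none in liver, at least 1262-fold higher. Syn1 had 2455 and 2136 reads in frozen and FFPE brain and 2 in each liver library, a difference of 9.05. Members with liver reads included the calcium sensor Syt1, at 8.52 and 8.75 in frozen and FFPE brain against 2.28 and 2.82 in frozen and FFPE liver, and the SNARE Vamp2, the smallest difference of the list at 4.02 ± 0.20. For the vesicular glutamate transporters the brain libraries stood apart from each other as given above, and both were without liver reads.

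Neuropeptide genes and their processing enzymes numbered 21 tested of 30 listed, and 21 were higher in brain, with a median of 8.27, or 6.37 with 16 genes at their bound. Penk, the precursor of enkephalins, had 2084 and 785 reads in frozen and FFPE brain and none in liver. Cpe, a carboxypeptidase that trims peptide precursors, had log2 values of 9.21 and 8.65 in frozen and FFPE brain against -0.68 and -0.22 in frozen and FFPE liver (9.38 ± 0.26, adjusted p = 1.06e-07). Pam, which amidates peptides, was the least different at 1.85 ± 0.33. The 9 members outside the test included Oxt, Avp, Trh, Pdyn and Gal, whose reads were mostly in frozen brain.

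Enzymes of the monoamines did not separate by organ as a group. Of 15 tested members of 22 listed, 7 were higher and 8 lower in brain, beside 37.7% and 32.6% of all tested genes. Chat, which makes acetylcholine, and Th, which starts the synthesis of dopamine and noradrenaline, had 170 and 125 reads in frozen brain, 66 and 43 in FFPE brain and none in liver, at least 20.4-fold and 14.1-fold higher. The members lower in brain take part in steps that liver also performs. Gch1, which starts the synthesis of the cofactor tetrahydrobiopterin, had log2 values of 0.41 and 0.45 in frozen and FFPE brain against 6.26 and 6.00 in frozen and FFPE liver (-5.70 ± 0.33). Ddc and Maob were at -4.22 and -3.68, while Maoa was at 1.38.

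Genes of the neuronal cytoskeleton were higher in brain for 28 of 30, with a median of 9.12, or 7.85 with 9 genes at their bound. Nefl, the light neurofilament, was at least 423-fold higher, and Map2, a microtubule protein of dendrites, had log2 values of 8.61 and 8.55 in frozen and FFPE brain against 0.26 and 0.70 in frozen and FFPE liver (8.10 ± 0.26). The tubulins Tubb2a and Tuba4a did not pass the threshold, at 0.17 ± 0.24 and -0.07 ± 0.16, while Tubb3 was without liver reads and Tuba1a was at 5.77. Tubulin genes of the same family thus differed by very different amounts.

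Splicing and RNA-binding proteins of neurons were higher in brain for all 22 listed genes, with a median of 7.52, or 5.70 with 6 genes at their bound. Rbfox1 had 2102 and 2726 reads in frozen and FFPE brain and none in liver, at least 462-fold higher. Its relatives Rbfox3, the antigen of the NeuN stain, and Rbfox2 were at 7.82 ± 1.07 and 1.86. Mbnl2 was the least different at 0.97 ± 0.20. Of 30 neural transcription factors listed, 25 were tested and 24 were higher in brain, with a median of 6.94, or 5.76 with 12 genes at their bound. Myt1l, a repressor of non-neuronal genes, had 3740 and 2763 reads in frozen and FFPE brain and none in liver, at least 620-fold higher. Sox2 was at least 96.1-fold higher, and Lhx2 did not pass (1.20 ± 0.63, adjusted p = 0.118).

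The transcription factors that set hepatocyte identity were lower in brain for all 26 listed genes, beside 32.6% of all tested genes. Their median was -6.50, or -6.46 with Gata4 at its bound. Hnf4a, the nuclear receptor that drives much of the hepatic programme, had 8 and 1 reads in frozen and FFPE brain, against 4607 and 7359 in frozen and FFPE liver (-11.46 ± 0.73, adjusted p = 2.70e-06). Broader factors were less apart, with the unfolded protein response factor Xbp1 at -1.77 ± 0.19 and Prox1, which adult brain also expresses, at -2.38 ± 0.21.

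Plasma proteins were lower in brain without exception in these lists. The 29 carriers and protease inhibitors had a median of -12.16, or -11.81 with 2 genes at their bound, and the 30 clotting and complement factors a median of -11.06. Apob, the backbone of very low density lipoprotein, had log2 values of 1.33 and -0.92 in frozen and FFPE brain against 13.44 and 13.37 in frozen and FFPE liver (-13.20 ± 0.49). Plg, the gene of plasminogen, had 4 and 0 reads in frozen and FFPE brain against 14672 and 23302 in frozen and FFPE liver (-14.38 ± 1.09). C3, the centre of the complement cascade, was at -11.99 ± 0.55. Some members were less apart. Trf, the iron carrier transferrin that oligodendrocytes also make, had log2 values of 7.26 and 6.79 in frozen and FFPE brain against 13.17 and 12.96 in frozen and FFPE liver (-6.04 ± 0.22). Ttr, the thyroxine carrier of liver and choroid plexus, had 40 reads in frozen brain and 1126 in FFPE brain, against 25815 and 21519 in frozen and FFPE liver (-7.58 ± 1.43). The Ttr difference was -10.59 in frozen and -4.56 in FFPE tissue. It missed the threshold with limma's robust variance model (adjusted p = 0.0516).

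Acute phase genes were lower in brain for 13 of 16 tested, with a median of -8.41, or -7.37 with 5 genes at their bound. Hamp, the iron hormone hepcidin, had no reads in brain and 1512 and 1390 reads in frozen and FFPE liver, at least 835-fold lower in brain. The serum amyloid gene Saa1 had 0 and 1 reads in frozen and FFPE brain and 116 and 271 in frozen and FFPE liver. The 2 members higher in brain were the metallothioneins Mt1 and Mt2, which bind zinc and copper. Mt1 had 841 and 471 reads in frozen and FFPE brain, against 12 and 236 in frozen and FFPE liver (2.75 ± 0.86, adjusted p = 0.0192). Without frozen liver the Mt1 difference was 0.80 (adjusted p = 0.0532), and without frozen brain it was 1.96 (adjusted p = 0.191). Mt2 was likewise at 1.47 (adjusted p = 0.172) without frozen liver and at 2.39 (adjusted p = 0.215) without frozen brain.

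Drug and steroid metabolism was lower in brain. All 28 tested cytochrome P450 and other phase I genes of 30 listed were lower in brain, with a median of -11.23, or -10.70 with 3 genes at their bound. Cyp2e1, the ethanol-oxidising enzyme of pericentral hepatocytes, had log2 values of 0.18 and -2.84 in frozen and FFPE brain against 11.67 and 11.69 in frozen and FFPE liver (-13.01 ± 0.65). Por, the reductase that serves all microsomal P450 enzymes, was the least different at -2.77 ± 0.28. Conjugating enzymes were lower in brain for 25 of 29 and higher for 4. Ugt2b36, a glucuronosyltransferase, had no reads in brain and was at least 2304-fold lower there. The 4 exceptions were Sult4a1, a sulfotransferase of neurons (9.84 ± 1.46), Nat8l, which makes N-acetylaspartate (9.48), Ugt8a, which makes the myelin lipid galactosylceramide (6.47 ± 0.66), and Gstm5 (3.06).

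Bile acid synthesis and transport was lower in brain for 24 of 26 genes, with a median of -8.84. Cyp7a1, the rate-limiting enzyme, had 0 and 1 reads in frozen and FFPE brain against 2415 and 3976 in frozen and FFPE liver (-12.60 ± 0.77, adjusted p = 2.08e-06). The bile salt importer Slc10a1 had no reads in brain and was at least 1552-fold lower there. Cyp46a1, which turns cholesterol into the form that leaves the brain, was higher in brain, with log2 values of 5.13 and 4.72 in frozen and FFPE brain against -0.13 and -0.22 in frozen and FFPE liver (5.10 ± 0.65). Abcb1a, an efflux pump of brain capillaries, was the other exception at 2.08. It was at 1.61 without frozen brain and 0.91 without frozen liver (adjusted p = 0.112 and 0.0543).

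The urea cycle and amino acid breakdown were lower in brain for 35 of 38 genes tested, with a median of -6.50. Cps1, which fixes ammonia in the mitochondrion, had log2 values of 0.02 and -1.08 in frozen and FFPE brain against 12.15 and 11.91 in frozen and FFPE liver (-12.56 ± 0.42). Arg1 and the tyrosine aminotransferase Tat were at -12.28 ± 0.88 and -13.74 ± 1.22. Glul, glutamine synthetase, which detoxifies ammonia in astrocytes and in pericentral hepatocytes, did not pass the threshold, with 8.582 and 8.596 in frozen and FFPE brain against 8.78 and 9.02 in frozen and FFPE liver (-0.31 ± 0.16, adjusted p = 0.116). The glutaminase Gls2 was lower in brain at -4.89.

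Glucose handling was lower in brain for 19 of 25 genes and higher for 5. Pck1 and G6pc, the enzymes at both ends of gluconeogenesis, were at -14.55 ± 1.10 and -12.00 ± 0.82. The members higher in brain were the mitochondrial Pck2 (1.95), the muscle-type glycogen synthase Gys1 (1.08), Pfkfb3 (1.03), the brain glycogen phosphorylase Pygb (3.90) and the pyruvate kinase Pkm (4.80 ± 0.16). Pfkfb3 missed the threshold without frozen brain, frozen liver or FFPE liver (adjusted p = 0.304, 0.183 and 0.0536). Fatty acid synthesis was less apart, with 24 of 30 genes lower in brain, 4 higher and a median of -2.60. Fasn, fatty acid synthase, had log2 values of 7.59 and 7.08 in frozen and FFPE brain against 9.55 and 9.14 in frozen and FFPE liver (-2.01 ± 0.26), and Elovl6 did not pass (-1.03 ± 0.45). Elovl4, which makes very long chain fatty acids, had 443 and 472 reads in frozen and FFPE brain and none in liver, at least 88.2-fold higher.

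Fatty acid oxidation and ketone synthesis were lower in brain for 29 of 32 genes, with a median of -3.82. Acadm, the medium-chain dehydrogenase, had log2 values of 3.75 and 3.29 in frozen and FFPE brain against 7.69 and 7.72 in frozen and FFPE liver (-4.18 ± 0.19). Oxct1, which uses ketone bodies, was higher in brain at 4.69 ± 0.19. Cholesterol synthesis and uptake were lower in brain for 28 of 34 genes, with a median of -2.41. Apoe, made by astrocytes in brain and by hepatocytes in liver, had 8.61 and 7.05 in frozen and FFPE brain against 12.83 and 12.18 in frozen and FFPE liver (-4.68 ± 0.25). Higher in brain were the reelin receptor Lrp8 (9.21 ± 0.83), the exporter Abcg4 (at least 87.1-fold), Vldlr, Abcg1 and Soat1. Iron and haem genes were lower in brain for 25 of 28, and the transferrin receptor Tfrc did not pass (0.32 ± 0.16).

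**Figure D3:**
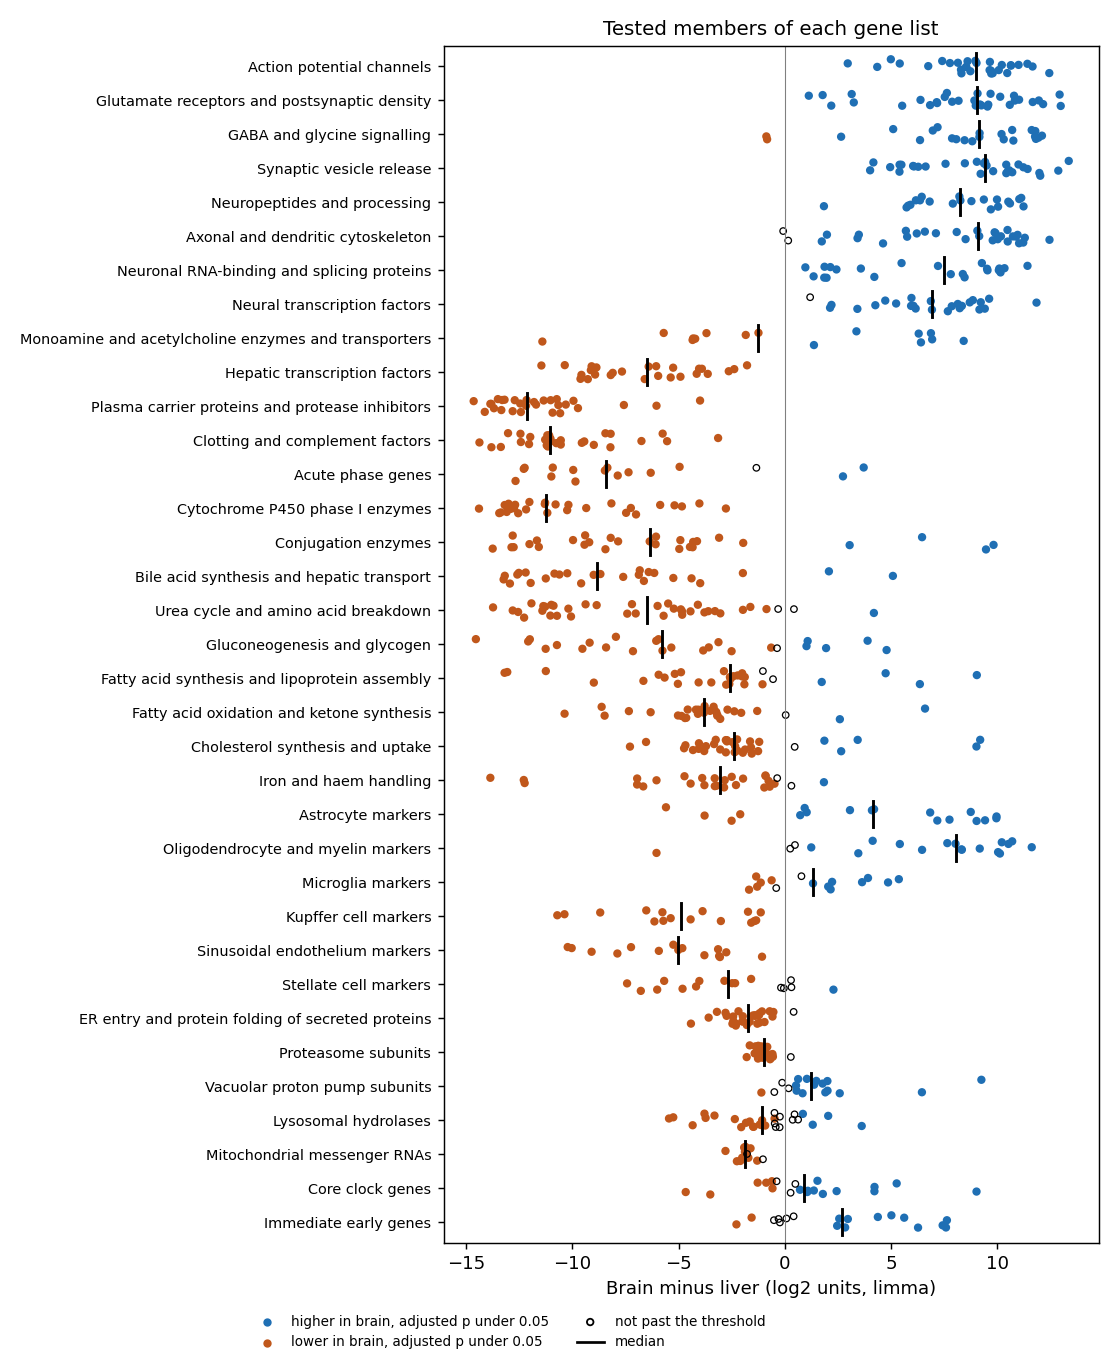
Brain minus liver difference (horizontal axis, log2 units) of every tested member of 35 gene lists (rows), with filled points past an adjusted p of 0.05, open points not past it and a bar at the list's median. Synaptic lists lie to the right with medians near 9, plasma protein lists to the left with medians of -12.16 and -11.06, and the proteasome list lies in a narrow range with a median of -0.96.

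Genes of the liver zones were counted too. Of 14 pericentral genes 10 were lower and 2 higher in brain, and of 14 periportal genes 13 were lower and 1 higher. These counts stand beside 32.6% lower and 37.7% higher over all tested genes. The 2 pericentral genes higher in brain were Axin2, a target of Wnt signalling (1.37 ± 0.41), and Slc1a2, the glutamate transporter of astrocytes, at 10.30 and 10.67 in frozen and FFPE brain against 6.99 and 7.83 in frozen and FFPE liver (3.07 ± 0.37). Axin2 missed the threshold without frozen brain and without FFPE liver (adjusted p = 0.177 and 0.116). Periportal Cyp2f2 and pericentral Cyp2e1 were both far below liver, at -10.79 and -13.01.

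Many steps are carried out by different members of a gene family in each organ. Of 30 pairs listed, 28 had both members tested, and in 19 the form listed for brain was higher and the form listed for liver lower in brain. Pyruvate kinase shows the pattern. Pkm had log2 values of 8.35 and 7.77 in frozen and FFPE brain against 3.42 and 3.10 in frozen and FFPE liver (4.80 ± 0.16), and Pklr had 3 and 2 reads in frozen and FFPE brain against 1044 and 1531 in frozen and FFPE liver (-9.53 ± 0.49). The glucose carriers Slc2a3 and Slc2a2 were at 7.34 and -11.26. The desaturases of oleate synthesis split as cleanly. Scd2 had 21313 and 10673 reads in frozen and FFPE brain and 82 and 135 in frozen and FFPE liver, while Scd1 had 2531 and 1904 in brain and 53237 and 77285 in liver. Their differences were 6.37 ± 0.23 and -5.66 ± 0.37.

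In other pairs one form differed less. Eno2 was at 11.28 while Eno1 did not pass (-0.25, adjusted p = 0.224). Dnm1, the dynamin of nerve endings, was at 10.72 and the common Dnm2 at -0.47 (adjusted p = 0.0534). In the elongation factor pair Eef1a2 had 5513 and 3299 reads in frozen and FFPE brain and none in liver, and Eef1a1 was lower in brain at -1.76 ± 0.18. Mat1a, the methionine adenosyltransferase of liver, had 2 and 3 reads in frozen and FFPE brain against 13089 and 26153 in liver, while Mat2a was at 0.45 (adjusted p = 0.0183). Both members were higher in brain for the phosphofructokinases Pfkp and Pfkl, the protein kinase A catalytic subunits Prkacb and Prkaca, their regulatory subunits Prkar1b and Prkar1a, and the metallothioneins Mt3 and Mt1. The smaller differences among these genes lost the threshold without single libraries. Without frozen brain Mat2a, Pfkl and Prkaca had adjusted p = 0.0755, 0.127 and 0.219, without FFPE brain Mat2a had 0.0756, without frozen liver Mat2a and Prkaca had 0.152 and 0.156, and without FFPE liver Mat2a, Pfkl and Prkaca had 0.0814, 0.111 and 0.0568.

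**Figure D4:**
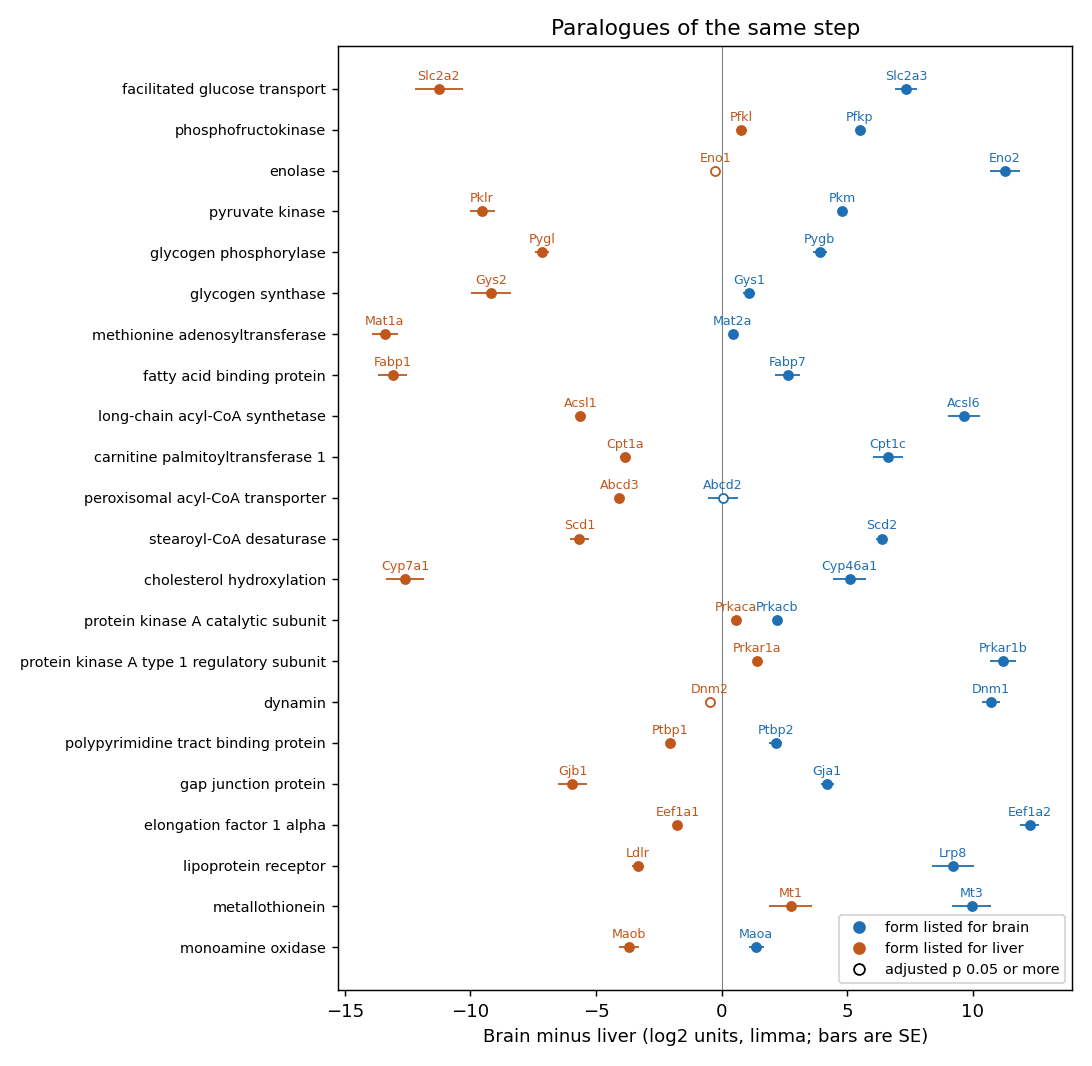
Brain minus liver difference (horizontal axis, log2 units, bars are SE) of both members of 22 pairs (rows), with the form listed for brain in blue and the form listed for liver in orange, and open points not past an adjusted p of 0.05. Most pairs straddle 0, as for Scd2 at 6.37 and Scd1 at -5.66, and Eno1, Dnm2 and Abcd2 sit near 0.

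Creatine and energy genes of brain were higher for 14 of 20 and lower for 5, beside 37.7% and 32.6% of all tested genes. Their median was 3.21. The lower ones were Gamt, which makes creatine (-4.16), the ketone enzymes Acat1 (-2.87) and Bdh1 (-2.69), and the monocarboxylate carriers Slc16a7 (-2.19) and Slc16a1 (-1.76).

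Glial cell markers were mostly higher in brain. Of 19 oligodendrocyte and myelin genes 16 were higher and 1, Trf, lower, with a median of 8.05, or 5.76 with 7 genes at their bound. Mbp, myelin basic protein, had log2 values of 9.73 and 9.66 in frozen and FFPE brain against -1.57 and -0.47 in frozen and FFPE liver (10.71 ± 0.38). Aspa and Myrf did not pass, at 0.48 and 0.26. Astrocyte markers were higher for 14 of 18 and lower for 4. Gfap had 5.21 and 5.28 in frozen and FFPE brain against -2.06 and -1.16 in frozen and FFPE liver (6.85 ± 0.67). The 4 lower members were Aldh1l1 (-5.59 ± 0.26), Agt (-3.77 ± 0.46), Ppp1r3c (-2.50) and Clu (-2.09), all of them above the level in both liver libraries. 

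Oligodendrocyte precursor markers were higher in brain for 9 of 10, with a median of 6.62, or 5.73 with 5 genes at their bound. Forebrain markers were higher for all 14 tested of 16 listed. Above the level in fewer than 2 of the 4 libraries, and so not tested, were 6 of 13 cerebellar markers and 11 of 16 thalamic, hypothalamic and midbrain markers. Genes outside the test can have many reads in 1 brain library, as given above for Fat2 and Oxt.

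Resident macrophages of both organs share genes. Of 15 microglia markers tested, 8 were higher in brain, 5 lower and 2 did not pass, with a median of 1.33. Over all tested genes, 37.7% were higher and 32.6% lower in brain. Cx3cr1 and P2ry12, the chemokine and nucleotide receptors of microglia, were at 4.87 ± 0.51 and 3.64 ± 0.62. Csf1r and the complement genes C1qa, C1qb and C1qc, which Kupffer cells also use, were at -0.62, -1.34, -1.13 and -1.30. These 4 and Sall1 made up the 5 lower ones, and none of the 5 passed without the scaling factors, and 1 passed without FFPE brain, 1 without FFPE liver and 4 without frozen brain. All 16 Kupffer cell markers were lower in brain, with a median of -4.90. Clec4f, a lectin of Kupffer cells, had 0 and 1 reads in frozen and FFPE brain and 662 and 667 in frozen and FFPE liver (-10.37 ± 0.88). Cd5l had no reads in brain and was at least 279-fold lower there.

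Vessel and stromal markers differed by list. Of 15 brain endothelium markers 11 were higher in brain and 3 lower. Slco1c1, the thyroxine transporter of brain capillaries, had 342 and 359 reads in frozen and FFPE brain against 0 and 1 in frozen and FFPE liver (7.87 ± 0.84), and the tight junction gene Cldn5 was at 1.37 ± 0.36. Cldn5 missed the threshold without frozen brain and without FFPE liver (adjusted p = 0.0619 and 0.0933). All 15 sinusoidal endothelium markers were lower in brain. The scavenger receptor Stab2 had log2 values of -0.53 and -0.12 in frozen and FFPE brain against 6.84 and 6.99 in frozen and FFPE liver (-7.24 ± 0.31). Stellate cell markers were lower for 11 of 16, with the retinol esterase Lrat at -7.42 ± 0.55, and Cygb was higher at 2.30. Meningeal fibroblast markers were lower in brain for 6 of 11 and higher for 3, and smooth muscle and pericyte markers were higher for 2 of 10 and lower for 3. Of 6 red cell genes tested, 2 were higher and 2 lower in brain. Over all tested genes, 37.7% were higher and 32.6% lower in brain. The globin Hbb-bs had 486 and 210 reads in frozen and FFPE brain and 450 and 424 in frozen and FFPE liver (-1.24 ± 0.28), and it missed the threshold without the scaling factors (-0.29, adjusted p = 0.353) and without the preparation block (adjusted p = 0.0638).

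Machinery found in every cell also differed, by less. Secretory pathway genes, which bring proteins into the endoplasmic reticulum and fold them, were lower in brain for 29 of 30, with a median of -1.72 beside 0.10 over all genes. With no scaling factors 15 were lower and 1 higher, with a median of -0.77. P4hb, a disulfide isomerase, had log2 values of 5.40 and 4.81 in frozen and FFPE brain against 9.62 and 9.43 in frozen and FFPE liver (-4.42 ± 0.16), and the chaperone Hspa5 was at -3.19 ± 0.25. Proteasome subunits were lower for 29 of 30, within a narrow range of -1.79 to 0.29. Without the scaling factors their median was -0.004 and 2 were lower and 1 higher, so their direction depends on the scaling. Relative to all genes their median was -1.05 under both, which is fixed, because leaving out the factors moves every gene equally. Under quantile normalization it was -0.755 relative to all genes. Subunits of the vacuolar proton pump, which acidifies synaptic vesicles and lysosomes, were higher in brain for 14 of 18. The neuronal subunits Atp6v0e2 and Atp6v1g2 were at 9.26 ± 0.72 and 6.46, and Atp6v0e was lower at -1.10 ± 0.24.

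Lysosomal hydrolases were lower in brain for 18 of 30 and higher for 4, beside 32.6% and 37.7% of all tested genes. Their median was -1.07, or -0.12 without the scaling factors. Ctsh was at -5.25 ± 0.23 and Ids, the iduronate sulfatase, at 3.63 ± 0.17. Mitochondrial messenger RNAs were lower in brain for 11 of 13, with a median of -1.85. COX1 had log2 values of 11.70 and 11.79 in frozen and FFPE brain against 13.22 and 13.96 in frozen and FFPE liver (-1.85 ± 0.57, adjusted p = 0.0174). Fewer of them passed without FFPE brain (6), without FFPE liver (6), without the scaling factors (6) or under quantile normalization (5). COX1 missed the threshold when any 1 of the 4 libraries was left out, at adjusted p between 0.0584 and 0.151. Of 16 genes used as references for such comparisons, 10 were lower in brain and 1, Ywhaz, higher, against 6 lower and 5 higher without the scaling factors. Gapdh did not pass (-0.32 ± 0.26, adjusted p = 0.291), while Actb was at -0.67 ± 0.18, Eef1a1 at -1.76 and B2m, the light chain of class I antigens, at -5.68 ± 0.24. Without the scaling factors Actb was at 0.28 (adjusted p = 0.309), without frozen brain, FFPE brain or FFPE liver it missed the threshold (adjusted p between 0.05 and 0.103), and under quantile normalization it was higher in brain at 0.69 (adjusted p = 0.0192).

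Clock genes were higher in brain for 11 of 20 and lower for 6, beside 37.7% and 32.6% of all tested genes. Dbp had 530 and 209 reads in frozen and FFPE brain and 8 and 12 in frozen and FFPE liver (4.23 ± 0.56), and Nfil3, which represses the same targets, was at -3.51 ± 0.31. Rorb, a nuclear receptor, was at 9.04 ± 0.52. The time of day at which organs were taken is not given. Immediate early genes, which follow neuronal activity, were higher in brain for 11 of 18. Arc had log2 values of 3.41 and 5.80 in frozen and FFPE brain and 1 read in each liver library (7.64 ± 1.00), and Egr1 had 4.36 and 6.26 in frozen and FFPE brain against 2.41 and 3.27 in frozen and FFPE liver (2.47 ± 0.38). FFPE brain was above frozen brain for both.

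Growth factor genes divided between the organs. Of 18 genes of the growth hormone axis 13 were lower in brain and 3 higher, beside 32.6% and 37.7% of all tested genes. Igf1, which liver secretes under growth hormone, had log2 values of 1.52 and 2.69 in frozen and FFPE brain against 8.84 and 9.17 in frozen and FFPE liver (-6.90 ± 0.27), and the receptor Ghr was at -5.93 ± 0.16. Igf2 had 311 and 338 reads in frozen and FFPE brain and 2 and 5 in frozen and FFPE liver (5.66 ± 0.56), and Igf1r, the receptor for both factors, was higher in brain at 3.26. Igfals and Igfbp1, which carry the factors in plasma, had no reads in brain and were at least 405-fold and 828-fold lower there. The glucocorticoid and fasting list was lower for 13 of 17. Errfi1, an inhibitor of EGF signalling, had 3.31 and 3.97 in frozen and FFPE brain against 9.74 and 10.17 in frozen and FFPE liver (-6.31 ± 0.16).

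Of 407 long noncoding RNAs tested, 183 (44.96%) were higher and 92 (22.6%) lower in brain, beside 37.7% and 32.6% of all tested genes. Meg3, an imprinted RNA, had 71510 and 53561 reads in frozen and FFPE brain against 18 and 50 in frozen and FFPE liver (10.19 ± 0.46). The rest of its cluster, Rian and Mirg, was at 8.32 ± 0.56 and 7.08 ± 0.69. Bc1, a short dendritic RNA of rodents, had 31553 and 10595 reads in frozen and FFPE brain and 3 and 13 in frozen and FFPE liver (10.59 ± 0.50). The host transcripts of neural microRNAs, Mir124a-1hg and Mir9-3hg, had no liver reads and were at least 348-fold and 36.1-fold higher in brain. Neat1, the scaffold of paraspeckles, was lower in brain, with 1556 and 1322 reads in frozen and FFPE brain against 11190 and 22422 in frozen and FFPE liver (-4.25 ± 0.22). Its neighbour on chromosome 19, Malat1, did not pass (0.22 ± 0.67, adjusted p = 0.787). Small nucleolar RNAs were lower in brain for 67 of 92 and higher for 8. These noncoding genes other than Malat1 were chosen after their values were seen.

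Gene families were also grouped by symbol, and those named here were chosen after the values were seen. The clustered protocadherins, adhesion proteins that give neurons their surface identity, were higher in brain for 12 of 12 alpha, 21 of 21 beta and 22 of 22 gamma genes, with medians of 6.43, 4.73 and 3.25. Their isoforms share exons, so reads may be split between them. Synaptotagmins were higher for 15 of 15. Potassium channel genes of the Kcn family were higher for 68 of 73 and lower for 3. Cytochrome P450 genes were lower for 59 of 66 and higher for 4, and major urinary proteins lower for 22 of 22. Of 281 solute carriers 108 were higher and 115 lower in brain, beside 37.7% and 32.6% of all tested genes. Of 347 zinc finger genes of the Zfp series 143 were higher and 33 lower. Cytosolic ribosomal proteins were lower in brain for 67 of 77 with a median of -1.05, and mitochondrial ribosomal proteins for 56 of 77 with a median of -0.98. Without the scaling factors every difference is 0.95 log2 units higher.

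Genomic span differed between the 2 sets of genes. Protein-coding genes 8-fold higher in brain had a median span of 44.0 kb and 32.6% exceeded 100 kb. Genes 8-fold lower in brain had a median of 18.8 kb and 6.54% exceeded 100 kb, beside 25.8 kb and 16.03% over all tested protein-coding genes. Of 211 genes over 500 kb, 136 (64.5%) were 8-fold higher and 4 (1.90%) 8-fold lower in brain. Below 50 kb the share 8-fold higher stayed between 12.3% and 15.9%. The scaffold gene Dlg2 spans 1973 kb. On the X chromosome 263 of 489 genes (53.8%) were higher in brain and 99 (20.25%) lower, beside 37.7% and 32.6% of all tested genes, while frozen brain and frozen liver differed in sex-linked transcripts as given above. The bars of shares by span show where the 2 organs part.

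**Figure D5:**
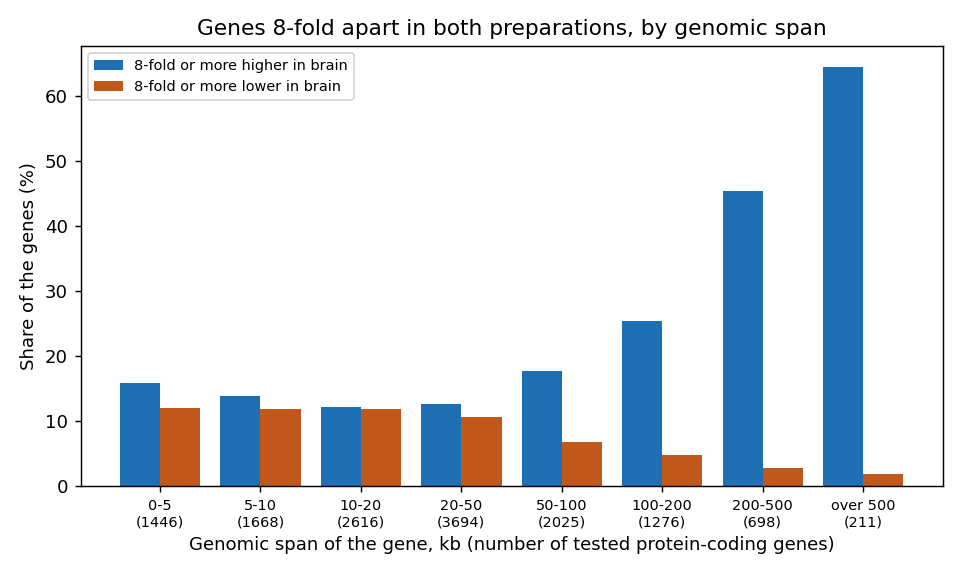
Share of tested protein-coding genes (vertical axis, %) that were 8-fold or more higher in brain (blue) or lower in brain (orange) in both preparations, by genomic span in kb (horizontal axis, number of genes in brackets). The brain share is 15.9% below 5 kb and 64.5% over 500 kb, and the share lower in brain is 12.03% below 5 kb and 1.90% over 500 kb.

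Other genes differed little on the deposited scale. Within 0.5 log2 units in both preparations lay 2150 genes. Among them Malat1, Rnu12, Glul, the calcium pump gene Atp2a2, the splicing factor gene Srrm2 and the ubiquitin ligase gene Huwe1 had the highest mean log2 values, and none passed the threshold. Srrm2, Atp2a2, Huwe1 and Glul passed as higher in brain under quantile normalization (1.48, 1.40, 1.32 and 0.88) and without the scaling factors (1.27, 1.16, 1.16 and 0.64), and Glul passed as lower with median centring (-0.51). Huwe1 had 8.61 and 8.59 in frozen and FFPE brain against 8.24 and 8.54 in frozen and FFPE liver (0.21 ± 0.17, adjusted p = 0.301). A p that misses the threshold does not show that levels were equal.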

How the data were processed

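Total RNA of frozen and FFPE mouse brain and liver was sequenced, with 1 library per organ and preparation. The authors deposited log2 values per gene. Per the submitters' processing notes, HISAT2, featureCounts and limma were used with build mm10, without versions. The deposited log2 values equal log2 of the read count plus 0.5, divided by a scaled library size (CPM), and whole reads were recovered for 100% of values in every library (tolerance 1e-06). Depth ran from 10180972 to 16807233 reads in the 4 libraries.

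The deposited values were fitted with limma 3.58.1 in R 4.3.3 (mean-variance trend, two-sided, Benjamini-Hochberg adjustment) over all 8 libraries with organ terms and preparation as block, since 2 libraries a side leave 1 residual degree of freedom. The fit had 3 residual degrees of freedom, and the lone libraries of each organ and preparation are assumed to vary like those of heart and kidney. The script was tested on simulated data. The labels carry no replicate numbers, so preparation is the only pairing. Python 3.11.15, numpy 2.4.6, pandas 2.3.3 and matplotlib 3.10.9 made the tables and figures.

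Genes named are the 15 largest differences in each direction, up to 4 members of each list with the largest differences, both members of each pair, 6 level genes and genes of opposite sign. Genes described as least different, as exceptions, as markers of sex or region, or as background to these were chosen after their values were seen. The members and lists were chosen with earlier results of these data known. Some genes these rules would name are not reported here. Promoters came from RefSeq. Alternatives covered scaling, filters, pseudocount, variance model, count model and single libraries.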

Additional observations from a re-analysis of the deposited data

Results flagged for a closer look

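Among the named genes, 6 moved in opposite directions in the 2 preparations, each by more than 1 log2 unit. With 1 library per organ and preparation the difference between preparations was not tested. Xist was 10.60 log2 units higher in brain than in liver in frozen tissue and at -1.59 in FFPE tissue, and frozen liver held 3 Xist reads. Il16, an interleukin gene with a neuronal form, was at -2.91 in frozen tissue and 2.55 in FFPE tissue. Scd3, a stearoyl-CoA desaturase gene, was at -3.69 in frozen tissue and 1.39 in FFPE tissue. In FFPE tissue Scd3 had 43 reads in brain and 13 in liver. Btbd16 was at -2.35 in frozen tissue and 2.42 in FFPE tissue, where it had only 16 reads in brain and 2 in liver. Il20rb, an interleukin receptor gene, was at -1.74 in frozen tissue and 2.37 in FFPE tissue. Its reads were few, at 10 and 14 in frozen brain and liver and 60 and 9 in FFPE brain and liver. Gramd4 was at -2.73 in frozen tissue and 1.07 in FFPE tissue. Sex-linked transcripts, brain region transcripts and preparation differ together between these libraries, and their parts in these values cannot be told apart.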

How the results depend on the processing

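The count of called genes, 10288, stayed within 1.5 times under every alternative. It was 9321 without the replicate block, 10337 with the 4 libraries alone, 11369 with no filter, 7329 with a stricter filter and 10497 with limma voom. Leaving out each brain or liver library gave 8733 to 9265. The split moved more without the scaling factors, where genes lower in brain numbered 2513. With the stricter filter 9669 genes were tested and 3643 were higher in brain. These were 49.7% of its called genes, against 53.7% in the main fit. The median of all tested genes was -0.014 with the stricter filter, -0.13 under quantile normalization and -0.10 with median centring.

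List medians that changed sign were those of reference genes (0.14 without the scaling factors), immediate early genes (-0.074 with the stricter filter) and microglia markers (-0.87 with the stricter filter). Without the scaling factors Abat (0.086), Actb (0.28), Csf1r (0.34), Dnm2 (0.49), Eno1 (0.70), Gapdh (0.63), Glul (0.64), Gphn (0.12), Rnu12 (0.63) and Tuba4a (0.88) changed sign. Under quantile normalization Actb (0.69), COX1 (0.12), Eno1 (0.18), Glul (0.88), Rnu12 (1.39) and Tuba4a (0.26) did. Abcd2 was at -0.15 with median centring, -0.009 with log2(CPM + 5) and -0.083 with voom, and Tubb2a at -0.032 with median centring. The cause was not tested beyond the construction of each scaling. Over fits without 1 library, differences ranged from -1.14 to 10.15 for Xist, -0.52 to 0.62 for Abcd2, -0.016 to 0.43 for Atp2a2, -0.98 to 0.33 for Rnu12, -0.23 to 0.084 for Tuba4a and -0.11 to 0.44 for Tubb2a.

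Classes of promoters were not compared, because the table held too few of them. With 1 library per organ and preparation, the spread within an organ and preparation cannot be measured, and genes with few reads carry the widest errors.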
